A study of Mus musculus with 8 samples.

Results

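The testis-specific serine kinases (TSSKs) are a small family of protein kinases made in germ cells. All 6 listed mouse genes, Tssk1 to Tssk6, were found by symbol among the 55414 genes of the expression table, and all 6 passed the filter on low values, which kept the 22077 genes averaging 1 FPKM or more across all 8 samples. The family was chosen by name, but with its FPKM difference between valine and control testes already known. That difference is therefore given for its members as a description. Members also appear in the fit of all genes, but no conclusion is drawn from their calls there. RNA was sequenced from whole mouse testis in 4 control samples and 4 samples labelled valine, a branched-chain amino acid. The sources used here give neither strain, age, dose, route nor length of treatment. They also do not say that samples are separate animals, so every p-value rests on sample-to-sample spread that may be technical.

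TSSKs are switched on after meiosis, in spermatids, the haploid cells that are remodelled into sperm. TSSK1 and TSSK2 bind and phosphorylate TSKS, a scaffold protein of the spermatid, and mice lacking both kinases are sterile. TSSK6 is needed for normal packing of sperm DNA and works with the co-chaperone TSACC, TSSK4 phosphorylates the outer dense fibre protein ODF2, and TSSK3 is also needed for male fertility.

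Tssk1 and Tssk2 lie next to each other on the plus strand of chromosome 16, and each is a single exon in the GENCODE vM21 annotation. Their coding sequences were identical at 82.0% of 1048 aligned bases, against 61.1% to 65.1% in the other pairs of family members. The longest stretch without a difference between them is shown first, because fragments from it cannot be given to either gene by sequence. It ran over 113 bases from coding base 371 in both genes (GENCODE vM21 models of GRCm38).
Tssk1 and Tssk2 shared stretch: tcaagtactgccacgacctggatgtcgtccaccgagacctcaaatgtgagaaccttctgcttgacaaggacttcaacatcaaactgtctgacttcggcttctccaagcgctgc

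Other pairs shared no run longer than 14 bases. A 60-base window of that stretch was placed without gaps in the coding frame of the other members. Tssk4 did not reach a match of 60% to Tssk1 in the transcript used, and the rest of its 6 annotated coding transcripts were not searched. The window is shown for those that matched Tssk1 at 60% of the bases or more, with the 24 bases common to all 5 sequences in capitals.
Tssk1: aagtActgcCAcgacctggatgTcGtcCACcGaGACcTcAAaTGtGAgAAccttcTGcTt
Tssk2: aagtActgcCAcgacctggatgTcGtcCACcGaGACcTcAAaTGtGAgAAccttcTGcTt
Tssk3: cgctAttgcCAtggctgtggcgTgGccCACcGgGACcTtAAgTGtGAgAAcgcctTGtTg
Tssk5: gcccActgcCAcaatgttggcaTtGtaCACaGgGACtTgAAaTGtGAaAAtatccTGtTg
Tssk6: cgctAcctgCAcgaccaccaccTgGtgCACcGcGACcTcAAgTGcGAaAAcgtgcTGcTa

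Tssk2 matched Tssk1 at all 60 bases, while Tssk3, Tssk5 and Tssk6 matched it at 38, 37 and 40 bases. The coding ends of Tssk1 and Tssk2 are shown for contrast, since fragments from there can be told apart. They shared no run of 8 bases, the minimum that would be printed in capitals.
Tssk1 coding bases 1009 to 1098: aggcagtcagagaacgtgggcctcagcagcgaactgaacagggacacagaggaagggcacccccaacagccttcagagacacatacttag
Tssk2 coding bases 988 to 1077: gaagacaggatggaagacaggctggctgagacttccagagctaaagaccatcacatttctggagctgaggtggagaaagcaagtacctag

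Of all distinct 50-base stretches in the annotated transcripts, 125 of 3651 in Tssk1 (3.42%) and 125 of 1339 in Tssk2 (9.34%) were common to the pair. The other 4 members shared none with another gene on the same strand. In Tssk6, 326 of 1286 stretches (25.3%) also lay in a transcript of Ndufa13 on the opposite strand. The sources used here do not say whether counting used strand.

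The bases just before the transcription starts of Tssk1 and Tssk2 are shown because the groups stood apart for one of these neighbours and overlapped for the other (RefSeq, GRCm38.p6, plus strand, chr16:17894113-17894202 for Tssk1 and chr16:17898547-17898636 for Tssk2). Capitals mark runs of at least 8 bases that occur in both windows.
Tssk1 upstream: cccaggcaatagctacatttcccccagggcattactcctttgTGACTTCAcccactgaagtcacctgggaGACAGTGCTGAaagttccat
Tssk2 upstream: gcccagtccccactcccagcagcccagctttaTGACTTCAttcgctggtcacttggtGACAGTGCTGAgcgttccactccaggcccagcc

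The longest common run, GACAGTGCTGA, held 11 bases and began at position -20 in Tssk1 and -33 in Tssk2. The other run, TGACTTCA, was picked after the sequences were seen. On either strand it was found in the 250 bases before the start of Tssk1 and Tssk2, not in those of Tssk3, Tssk4 or Tssk6, and in 1.32% of 32536 mouse promoters. The cAMP response element TGACGTCA, a motif known from many spermatid genes, was found in 1.56% of all promoters on either strand and in none of these 5 windows. Its core TGACG was found in 17.9% of all promoters and, among the 5 windows, only in that of Tssk6, at -73. No window was available for Tssk5.

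Tssk2 was the most abundant member of the family in control testes and the only one with a lower mean in valine testes. Its level was 725, 729.5, 726 and 800.8 FPKM in control replicates 1 to 4 and 512, 443, 436 and 645 FPKM in valine replicates 1 to 4. FPKM corrects fragment numbers for the length of the gene and the size of the library, so levels can be set side by side between genes as far as the length used for each is right. Every valine sample lay below every control sample, and valine replicate 4 was the nearest to the controls. The control mean was 745 ± 36.9 FPKM and the valine mean 509 ± 96.9 FPKM (SD, n = 4), which is 31.7% lower, and the log2 change was -0.57 ± 0.118 (SE). Log2 changes are differences of log2(FPKM + 1). In whole tissue, fewer spermatids and less transcript per spermatid cannot be told apart. How fragments from the stretches shared with Tssk1 were assigned was not tested.

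Tssk1, its neighbour and closest relative, did not show the lower level. It had 188, 179.7, 194 and 222 FPKM in control and 229.8, 217, 185 and 237 FPKM in valine replicates 1 to 4, and the groups overlapped. The control mean was 196 ± 18.3 FPKM and the valine mean 217 ± 22.8 FPKM (SD, n = 4), with a log2 change of 0.15 ± 0.0918 (SE).

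The ratio of Tssk2 to Tssk1 does not depend on a factor that scales a whole sample. Corrections that differ between genes can change it. With the length trend removed, the log2 changes were -0.66 for Tssk2 and 0.19 for Tssk1. As deposited, the ratio was 3.85, 4.06, 3.74 and 3.61 in control replicates 1 to 4 and 2.23, 2.04, 2.35 and 2.72 in valine replicates 1 to 4. The groups stood well apart, at 3.82 ± 0.191 and 2.34 ± 0.288 (SD, n = 4). The size of this ratio depends on the gene length used, since Tssk1 is 3700 bases long in GENCODE vM21 and 1451 bases in RefSeq, a factor of 2.55, while Tssk2 is 1388 bases in both. A common length factor leaves the comparison between samples as it is.

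**Figure D1:**
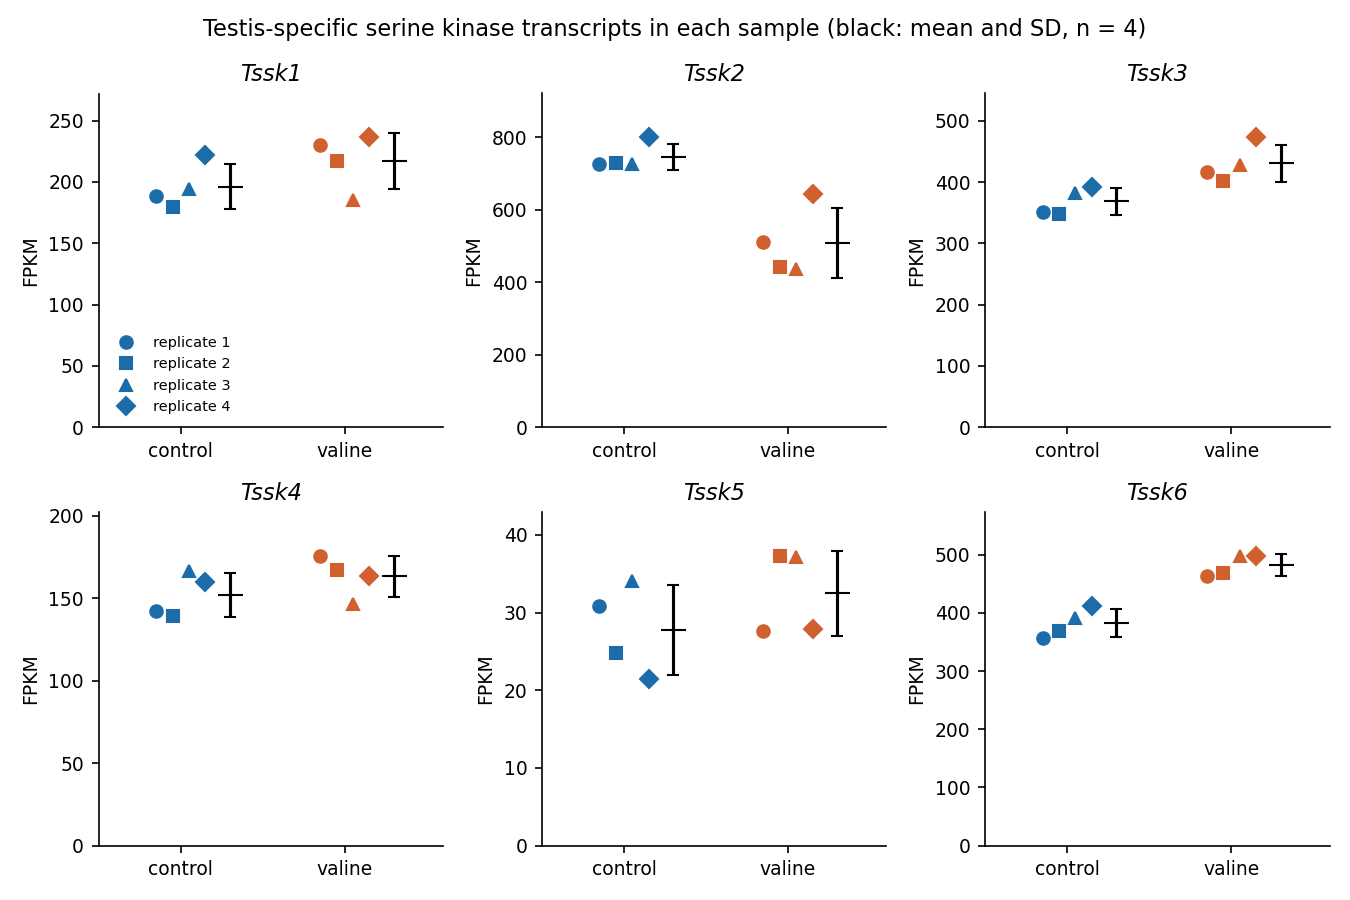
FPKM (y axis, from 0) of each TSSK gene in 4 control (blue) and 4 valine (orange) samples; symbols give the replicate number and black bars the mean and SD. Tssk2 lies at 725 to 800.8 FPKM in the control group and 436 to 645 FPKM in the valine group, Tssk3 and Tssk6 are higher in every valine sample, and Tssk1, Tssk4 and Tssk5 overlap.

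Tssk6, the kinase tied to chromatin packing, had the largest log2 change in the other direction as deposited, though not under quantile normalisation, where Tssk5 was above it. It was present at 356, 369, 391 and 412 FPKM in control and 464, 468, 498 and 497 FPKM in valine replicates 1 to 4. The lowest valine sample exceeded the highest control sample, with means of 382 ± 24.4 and 482 ± 18.4 FPKM (SD, n = 4) and a log2 change of 0.34 ± 0.0546 (SE). Ndufa13, a subunit of mitochondrial complex I whose transcript overlaps Tssk6 on the opposite strand, rose from 131 ± 5.39 to 167 ± 16.6 FPKM (limma adjusted p = 0.0255; log2 change 0.34 ± 0.0729 SE). Its call was lost in 9 of 16 alternatives (limma adjusted p from 0.0184 to 0.0906), with equal totals, quantile normalisation, removal of the length trend or no mean-variance trend, and without control replicate 1, 2 or 3 or valine replicate 1 or 3. Whether fragments of Ndufa13 were counted for Tssk6 was not tested.

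Tssk3 showed a smaller difference of the same sign. Control replicates 1 to 4 had 351, 348, 383 and 392 FPKM, and valine replicates 1 to 4 had 417, 403, 428 and 474 FPKM. The groups did not overlap, at 369 ± 21.8 and 430.5 ± 30.7 FPKM (SD, n = 4), with a log2 change of 0.22 ± 0.0636 (SE).

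Tssk4 and Tssk5 overlapped between the groups. For Tssk4, which acts on a protein of the sperm tail, values were 143, 139, 167 and 160.0 FPKM in control and 176, 167, 146 and 163 FPKM in valine replicates 1 to 4 (log2 change 0.10 ± 0.0777 SE). Tssk5 was the least abundant, at 30.9, 24.8, 34.1 and 21.4 FPKM in control and 27.6, 37.4, 37.1 and 27.9 FPKM in valine replicates 1 to 4 (log2 change 0.23 ± 0.165 SE). Its spread between control samples was the widest of the family, with an SD equal to 20.7% of the mean, against 4.95% for Tssk2.

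By level, the control samples gave the order Tssk2, Tssk6, Tssk3, Tssk1, Tssk4 and Tssk5. Only Tssk6 and Tssk3 overlapped in range, although Tssk6 was the higher of these neighbours in 4 of 4 samples. In valine testes the order of the means was unchanged, but Tssk2 and Tssk6 now overlapped and Tssk2 was the higher in only 2 of 4 samples. The place of Tssk1 in this order is uncertain because of its annotated length. Among the 22077 tested genes ranked by control mean, Tssk2 stood at place 129, Tssk6 at 348, Tssk3 at 364, Tssk1 at 814, Tssk4 at 1117 and Tssk5 at 5360.

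The summed level of the 6 genes overlapped between the groups, at 1872 ± 102 FPKM for control and 1834 ± 146 FPKM for valine (SD, n = 4), while its make-up differed. Tssk2 supplied 39.8 ± 1.06% of the sum in control and 27.6 ± 2.95% in valine testes (SD, n = 4). The share of Tssk6 was 20.4 ± 0.375% and 26.4 ± 1.94%, and that of Tssk3 19.7 ± 0.342% and 23.5 ± 0.847%. None of these 3 shares overlapped between the groups. Their size carries the same limit from the length of Tssk1. The shares of Tssk1, Tssk4 and Tssk5 did overlap.

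**Figure D2:**
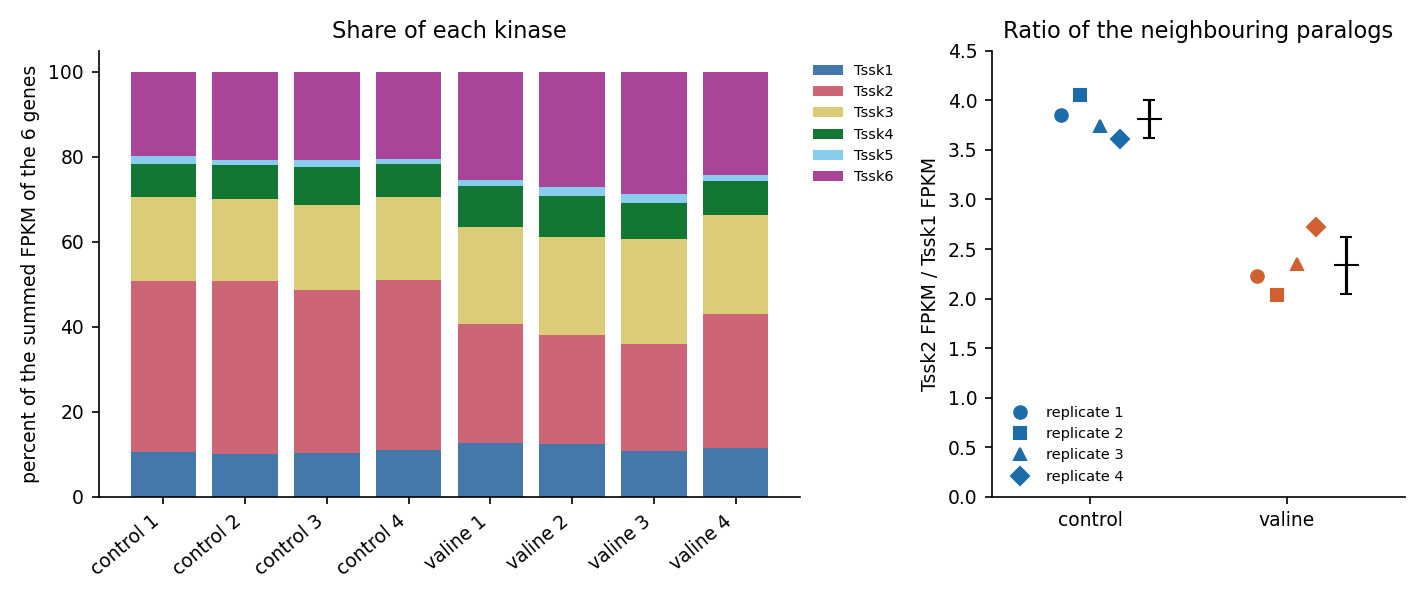
Left, percent of the summed FPKM of the 6 genes (y axis) held by each gene in each sample; right, the ratio of Tssk2 to Tssk1 FPKM (y axis, from 0) per sample, with the mean and SD in black. Tssk2 takes 38.3% to 40.7% of the sum in control and 25.2% to 31.6% in valine testes, and its ratio to Tssk1 is 3.61 to 4.06 and 2.04 to 2.72.

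In the fit of all genes (limma, Benjamini-Hochberg adjustment at 0.05), 2 of the 6 members were past the threshold, Tssk6 higher and Tssk2 lower, where 8.73% of all tested genes were past it (4.32% higher, 4.41% lower). The groups did not overlap for 3 of 6 members, against 18.4% of all tested genes. Of these members 2 were higher (8.99% of all genes) and 1 was lower (9.39% of all genes). The median log2 change was 0.18 over the 6 members and 0.02 over all tested genes. Since the contrast was known when the family was chosen, nothing is read from these counts or from the calls of single members. Tssk2 was not past the threshold when control replicate 1, 2 or 4 or valine replicate 1, 2 or 3 was left out, although its log2 change stayed between -0.69 and -0.50.

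FPKM totals were 944659 to 974626 in control and 1027662 to 1070524 in valine samples, so the scaling matters for small differences. Rescaling to equal totals moved the median of all genes by -0.10, and 15.2% of the called genes were then higher, against 49.5% as deposited. The log2 changes became -0.68 for Tssk2, 0.22 for Tssk6, 0.11 for Tssk3, 0.11 for Tssk5, 0.03 for Tssk1 and -0.02 for Tssk4. Under quantile normalisation they were -0.74 for Tssk2, 0.19 for Tssk5, 0.17 for Tssk6, 0.06 for Tssk3, 0.0062 for Tssk1 and -0.01 for Tssk4. Tssk2 and Tssk6 kept their signs in all 16 alternatives, while the sign of Tssk4 depended on the scaling.

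**Figure D3:**
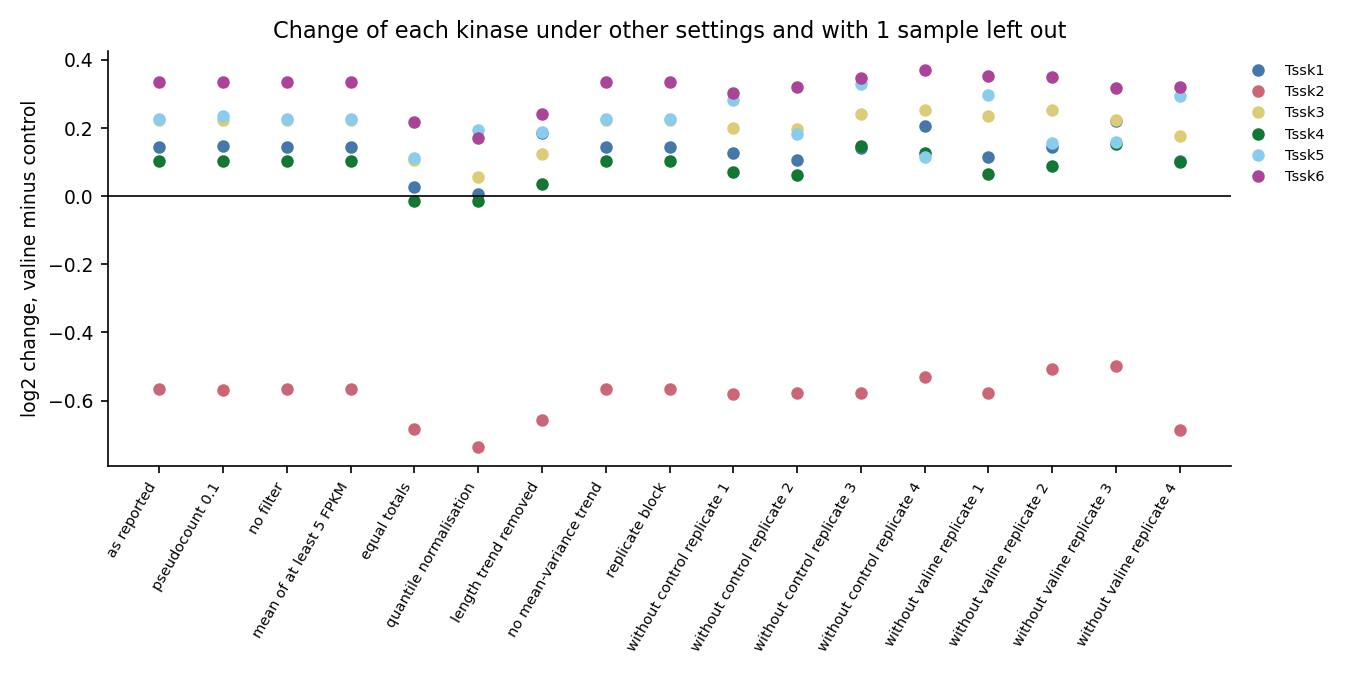
Log2 change, valine minus control (y axis), of each TSSK gene as reported, under 8 other settings and with each of the 8 samples left out (x axis). Tssk2 stays between -0.74 and -0.50 and Tssk6 between 0.17 and 0.37, while Tssk4 dips just below 0 with equal totals and quantile normalisation.

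The partners and substrates of the kinases were tested as a list fixed by name, but chosen with earlier results of these data known. Of 12 genes 2 rose and 1 fell (limma adjusted p below 0.05), against 4.32% and 4.41% of all tested genes. The list median was 0.03 on the log2 scale. Tsks, the scaffold phosphorylated by TSSK1 and TSSK2, had 745, 773, 778 and 811 FPKM in control and 914, 889, 858 and 945 FPKM in valine replicates 1 to 4. It rose, every valine sample lying above every control sample, with a log2 change of 0.22 ± 0.0446 (SE, limma adjusted p = 0.0238). This call was lost in 11 of 16 alternatives (limma adjusted p from 0.0185 to 0.609), among them equal totals, quantile normalisation, removal of the length trend, and leaving out control replicate 1, 2 or 3 or valine replicate 1, 2 or 4. The ratio of Tssk2 to Tsks was 0.960 ± 0.0253 in control and 0.562 ± 0.0845 in valine testes (SD, n = 4) without overlap, while that of Tssk1 to Tsks was 0.252 ± 0.0170 and 0.240 ± 0.0166 with overlap.

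Tsacc, the co-chaperone that activates TSSK6, also rose. It had 107, 108, 108 and 107 FPKM in control and 127, 126, 135 and 139.6 FPKM in valine replicates 1 to 4, without overlap. The log2 change was 0.29 ± 0.0460 (SE, limma adjusted p = 0.00994). Only removal of the length trend ended this call (limma adjusted p = 0.0675). The ratio of Tssk6 to Tsacc overlapped between the groups, at 3.55 ± 0.231 and 3.66 ± 0.0698 (SD, n = 4).

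Hsp90ab1, a form of the chaperone HSP90 that many kinases bind, fell by 0.23 ± 0.0407 on the log2 scale (SE), from a mean of 239 ± 7.42 FPKM to 203 ± 5.31 FPKM (limma adjusted p = 0.0129). It was not past the threshold without the mean-variance trend (limma adjusted p = 0.0531). The 9 genes of the list that did not pass were Odf2, Spag16, Creb1, Hsp90aa1, Hspa8, Cdc37, Pdpk1, Ppp1cc and H2afx. Odf2 (limma adjusted p = 0.0899) and Ppp1cc (limma adjusted p = 0.0523) were higher in every valine sample. Ppp1cc passed with a pseudocount of 0.1 or a filter at a mean of 5 FPKM, and Odf2 with the length trend removed. Hsp90aa1 passed with equal totals or quantile normalisation. Spag16, which codes for a sperm tail protein, is given because it was the farthest from 0 of these 9, a choice made with its values in view. Control replicates 1 to 4 had 41.0, 41.5, 44.3 and 45.7 FPKM, and valine replicates 1 to 4 had 40.3, 23.0, 24.3 and 39.9 FPKM. The groups did not overlap, but valine replicates 1 and 4 lay just below the controls and the limma adjusted p was 0.158.

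**Figure D4:**
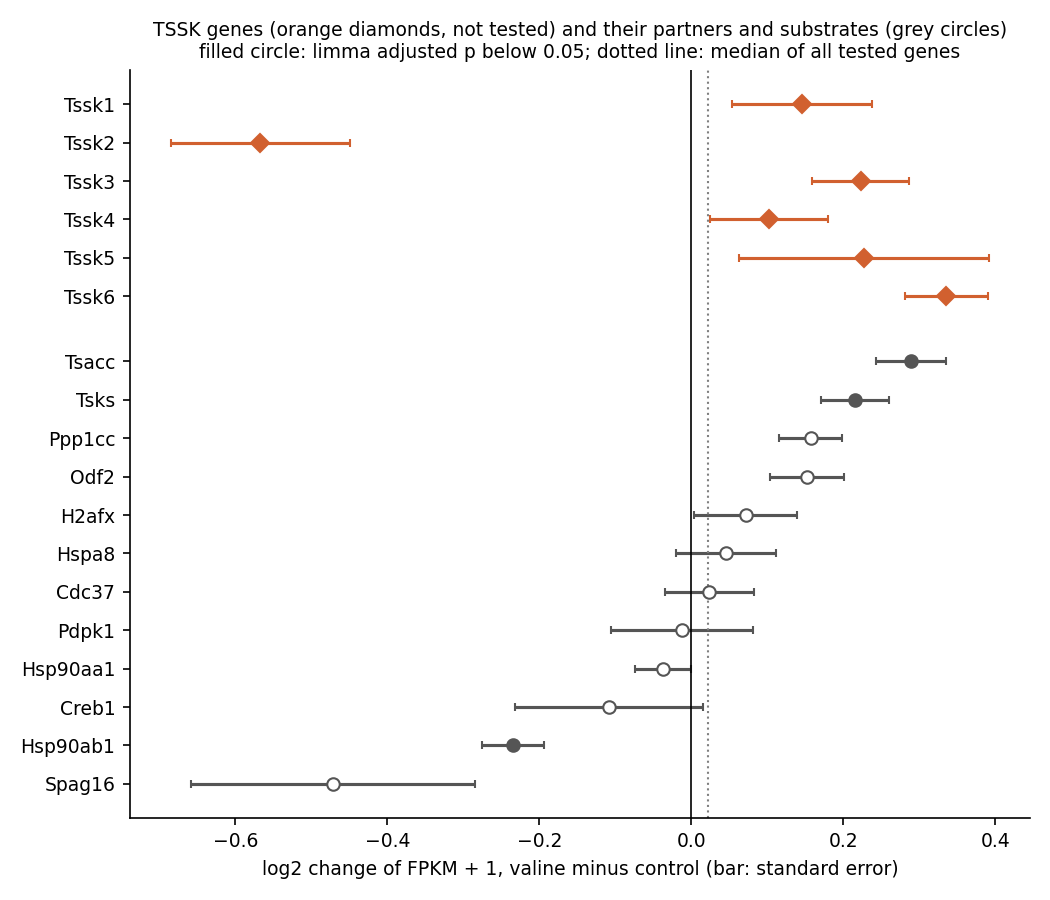
Log2 change, valine minus control (x axis; bars are standard errors), of the 6 TSSK genes (orange diamonds, shown without a test) and of 12 partners, chaperones and substrates (grey circles, filled where the limma adjusted p was below 0.05). Tssk2 lies at -0.57, away from the other 5 kinases at 0.10 to 0.34, and Tsacc and Tsks lie at 0.29 and 0.22.

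Other kinases were read as 2 lists, against the 8.73% of all tested genes past the threshold. Both lists were chosen with earlier results of these data known. TSSKs belong to a branch of kinases related to the energy sensor AMPK. Of 17 tested genes listed with that branch, 1 fell and none rose. This was Mark2, a kinase of cell polarity and microtubules, at 43.0 ± 2.44 FPKM for control and 35.0 ± 2.82 FPKM for valine (log2 change -0.29 ± 0.0720 SE, limma adjusted p = 0.043). Its call was lost in 10 of 16 alternatives (limma adjusted p up to 0.214), among them removal of the length trend and leaving out control replicate 1, 3 or 4 or valine replicate 1, 2 or 3. Stk11, also on this list, was higher in every valine sample but not past the threshold (log2 change 0.20 ± 0.0537 SE, limma adjusted p = 0.0533). It passed beside Mark2 with a filter at a mean of 5 FPKM, and was the only call with the length trend removed. The list median was -0.11 on the log2 scale. The catalytic subunit gene Prkaa2 was below the filter.

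Of 18 further kinases known from germ cells, limma called 0, with 4 at an unadjusted p below 0.05. The smallest p values belonged to Stk36 (105 ± 12.4 and 85.2 ± 6.59 FPKM, limma adjusted p = 0.0918) and Fer (23.1 ± 0.352 and 27.0 ± 2.59 FPKM, limma adjusted p = 0.107). With equal totals Stk36 and Tex14 were past the threshold. The list median was 0.02 on the log2 scale.

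The genes around the kinases were read to see whether neighbours moved with them. Dgcr2, which overlaps Tssk1 on the opposite strand, had 21.9 ± 1.30 and 22.0 ± 1.21 FPKM (limma adjusted p = 0.979). Ess2, on the other side of Tssk2, had 19.0 ± 0.540 and 19.1 ± 1.76 FPKM (limma adjusted p = 0.988). As deposited, neither had a log2 change above 0.01 in size, beside the -0.57 of Tssk2. Over the alternatives Dgcr2 ranged from -0.11 to 0.10 and Ess2 from -0.11 to 0.06, while Tssk2 stayed between -0.74 and -0.50. Yjefn3, which also overlaps Tssk6, had 23.9 ± 3.68 and 31.9 ± 5.70 FPKM (limma adjusted p = 0.145). Next to Tssk3, Fam229a had 344 ± 29.3 and 442 ± 54.8 FPKM (limma adjusted p = 0.0533) and Bsdc1 41.5 ± 3.97 and 43.5 ± 0.782 FPKM (limma adjusted p = 0.576). Beside Tssk5, Hgh1 had 27.7 ± 5.80 and 34.2 ± 2.53 FPKM (limma adjusted p = 0.227) and Mroh1 24.3 ± 2.33 and 19.8 ± 0.945 FPKM (limma adjusted p = 0.0646). Gm49747, next to Tssk4, had 2.37 ± 0.227 and 2.37 ± 0.422 FPKM, and Gm49299, on its other side, had 0 FPKM listed in all 4 controls.

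Germ cell and other markers were read in the same samples, against 4.32% of all tested genes called higher and 4.41% called lower. All marker lists, also those of somatic cells, were chosen with earlier results of these data known. Of 15 elongating spermatid markers 11 rose and none fell (median 0.29 on the log2 scale), such as Prm3, a protamine (log2 change 0.53 ± 0.0773 SE, limma adjusted p = 0.00721), and Tnp1, a transition protein (0.48 ± 0.0842 SE, limma adjusted p = 0.0135). Their summed level was 49103 to 51352 FPKM in control and 61652 to 74399 FPKM in valine samples. Prm1, Prm2 and Tnp2 made up most of it. After quantile normalisation 3 of the 15 markers were past the threshold, after removal of the length trend 4, without a filter 5 and without valine replicate 1, 7. Prm3 passed in each of these, while Tnp1 was not past the threshold with quantile normalisation (limma adjusted p = 0.127) or the length trend removed (limma adjusted p = 0.0598). Of 14 tested round spermatid markers 4 rose, led by Acrbp, an acrosome protein (0.39 ± 0.0627 SE, limma adjusted p = 0.00994), and Spaca7. Acrbp passed in all 16 alternatives, while Spaca7 lost its call in 13 of them (limma adjusted p up to 0.156). Their summed level was 3425 to 3833 FPKM in control and 3992 to 4174 FPKM in valine samples, and only 1 was past the threshold in 6 other settings. It was also 1 without control replicate 1, 2 or 3 or valine replicate 1 or 2, and 2 without control or valine replicate 4. Of 12 spermatocyte markers 3 rose, Ldhc, Tbpl1 and Ccna1, with list sums of 5660 to 5932 and 6398 to 7074 FPKM. Most of these sums came from Ldhc, with means of 4428 FPKM in control and 5238 FPKM in valine. No spermatocyte marker was past the threshold without control replicate 1, and 1 was without valine replicate 1. With equal totals or quantile normalisation none of these 3 was past the threshold, and the calls were instead Piwil1 and Mybl1, or Piwil1 alone, which had log2 changes of -0.17 each as deposited. Ccna1 lost its call in 13 of 16 alternatives (limma adjusted p up to 0.238).

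Among markers of somatic cells, all 10 Leydig cell markers fell (median -1.71 on the log2 scale), led by Cyp11a1 and Hsd17b3, with a summed level of 1677 to 2353 FPKM in control and 525 to 821 FPKM in valine samples. Of 8 macrophage markers 4 fell, led by Ctss and Lyz2, with sums of 100.4 to 121 and 45.0 to 59.1 FPKM. Of 12 Sertoli cell markers only Rhox8 rose, with list sums of 604 to 702 and 605 to 657 FPKM, most of which came from Clu. Rhox8 was not past the threshold without a filter, with equal totals or the length trend removed, or when any sample but control replicate 3 was left out. Beside these counts, 4.32% of all tested genes were called higher and 4.41% lower. No marker was listed at 0 in all 8 samples. Actl7b, a round spermatid marker, had 0 FPKM listed in all 4 controls and was below the filter. The part of these cell markers in the TSSK values was not tested.

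Genes whose values followed those of Tssk2 and Tssk6 were named by likeness, with clone and model names left out. The measure was the root mean square difference of log2(FPKM + 1), each gene taken relative to its own mean over the 8 samples, so 0 is an identical pattern. For Tssk2 the nearest were Fam107a (0.0700), Faf1 (0.0731) and Antxr1 (0.103). Faf1, whose product binds FAS and ubiquitinated proteins, had 50.3, 52.3, 51.0 and 55.3 FPKM in control and 39.1, 33.2, 34.3 and 44.7 FPKM in valine replicates 1 to 4. As in Tssk2, its highest valine sample was replicate 4, but it was picked for likeness over these same samples. Fam107a and Antxr1 were scarce, with control means of 2.93 and 2.49 FPKM.

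For Tssk6 the nearest were Arl4a, a small GTPase (0.0222), Ccdc189 (0.0294) and Oaz3, a sperm-specific antizyme (0.0326). Arl4a had 94.6, 98.2, 103 and 105 FPKM in control and 125, 122, 132 and 129 FPKM in valine replicates 1 to 4. Within the family the closest pair was Tssk3 and Tssk6 (0.0733), followed by Tssk1 and Tssk4 (0.0863). Tssk2 was no closer than 0.374 to any other member.

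**Figure D5:**
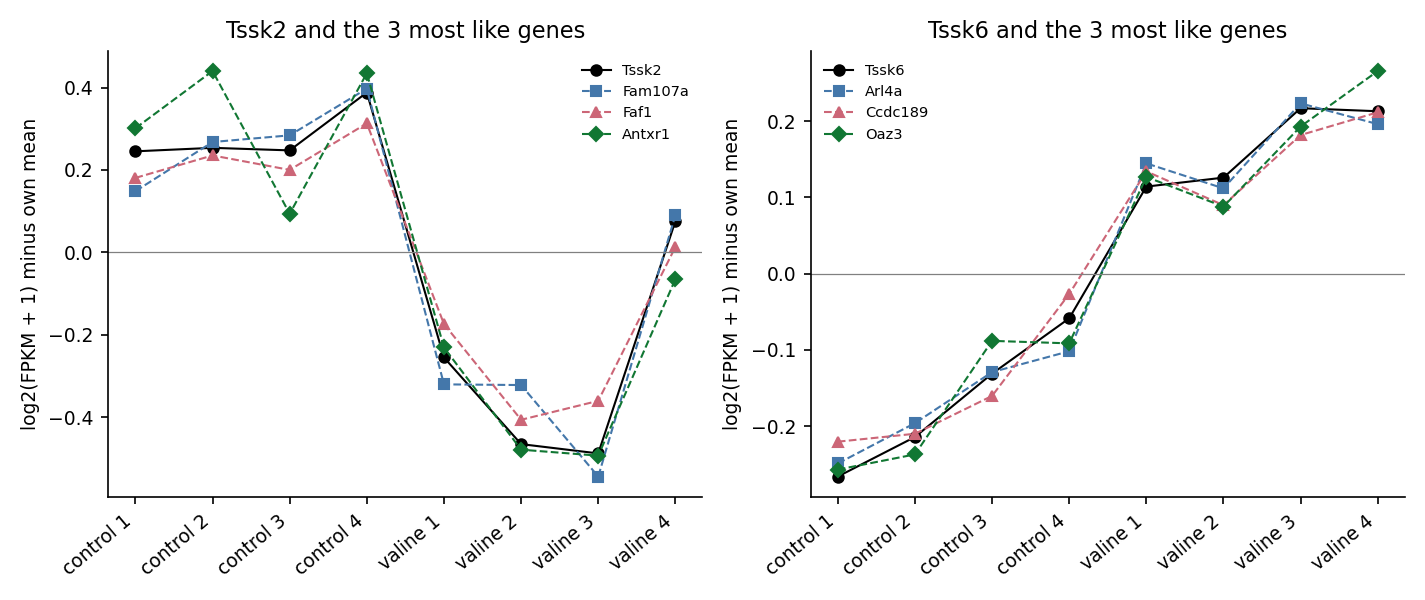
Log2(FPKM + 1) relative to each gene's own mean (y axis) in the 8 samples (x axis) for Tssk2 (left, black) and Tssk6 (right, black) with the 3 genes most like each; lines only join the values of 1 gene. Fam107a, Faf1 and Antxr1 share the high value of valine replicate 4 within the valine group seen for Tssk2, and Arl4a, Ccdc189 and Oaz3 are higher in every valine sample, as Tssk6 is. The genes were picked for likeness over these 8 samples, so the shared pattern is not a separate result. Clone and model names were left out of the choice.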

How the data were processed

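RNA from mouse testis (4 control and 4 valine samples) was sequenced, and the authors deposited FPKM values per gene. Reads were aligned with HISAT2 to GRCm39, per the submitters' processing notes; the quantifier, annotation release, strand setting and absolute depth are not given in the sources used here. Counting intervals were therefore not computed. Columns were matched to samples by group and replicate number, and no pair of samples held identical values. Symbols came from GENCODE vM21 and RefSeq GRCm38.p6 (52081 of 55414 genes), an older assembly than the authors'.

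Values were analysed as log2(FPKM + 1) for the 22077 genes averaging 1 FPKM or more, with limma 3.58.1 in R 4.3.3, with treatment as the only term, a mean-variance trend, and two-sided p-values adjusted by Benjamini-Hochberg (0.05) over all tested genes. The fit was tried once on simulated data in which 100 genes were shifted by 0.5 on the log2 scale and another 100 by 1. It found 33 of the first set and 62 of the second, with 2 false calls in all. Many simulated shifts were thus missed, so a gene not past the threshold is not shown to be unchanged. Members and lists were chosen with earlier results of these data known. Named were all 6 TSSK genes, called members of the partner and kinase lists (or the 2 smallest p), up to 2 called markers per list, overlapping or nearest genes, and the 3 genes most like Tssk2 and Tssk6. The choice by likeness left out clone and model names. Alternatives were a pseudocount of 0.1, other filters, equal totals, quantile normalisation, a loess length trend (span 0.3) removed, no mean-variance trend, a replicate block, and each sample left out. Promoter sequences are from RefSeq. Coding sequences were read from GENCODE transcripts, as the longest frame from ATG to a stop codon in the transcript used for each gene.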

Additional observations from a re-analysis of the deposited data

Results flagged for a closer look

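Among 46 groups of 4 samples checked for a sample far from the rest (the TSSK genes, their summed level and Tssk2 to Tssk1 ratio, named kinases and partners, and neighbours), 2 held one, and chance flags about 1 in 20. The level of Tssk2 in control replicate 4 was 800.8 FPKM, far above the other 3 control samples at 725 to 729.5 FPKM; without that sample the log2 change of Tssk2 was -0.53. The level of Mark2 in control replicate 2 was 39.3 FPKM, below the other control samples.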

How the results depend on the processing

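Genes higher with valine numbered 954 as reported and 1110 with a filter at a mean of 5 FPKM. They numbered 568 without a filter, 650 with the length trend removed, 363 with equal totals and 398 with quantile normalisation. The number was 503 without the mean-variance trend, 581 with the replicate number as a block and 381 to 795 with 1 sample left out. Genes lower with valine numbered 974 as reported, 2022 with equal totals and 1029 with quantile normalisation. The number was 713 without a filter, 732 with a filter at a mean of 5 FPKM and 655 with the length trend removed. It was 847 without the mean-variance trend, 489 with the block and 461 to 802 with 1 sample left out. Of the TSSK genes 2 were past the threshold, 3 with the replicate block, where Tssk3 was added, and 1 to 2 with a sample left out. Among TSSK partners 3 passed, 4 with a pseudocount of 0.1 or a filter at a mean of 5 FPKM, and 2 without a filter or with the length trend removed. The number was 1 without the mean-variance trend and 2 to 3 with a sample left out. In the list of AMPK-related kinases 1 passed, 2 with a filter at a mean of 5 FPKM, and 1 with the length trend removed (Stk11, not Mark2). The number was 0 without a filter, without the mean-variance trend or with the replicate block, and 0 to 1 with a sample left out. Among other germ cell kinases 0 passed, 2 with equal totals and 1 with quantile normalisation. Round spermatid markers past the threshold numbered 4, then 1 without a filter, with equal totals, quantile normalisation, the length trend removed, no mean-variance trend or the replicate block, and 1 to 3 with a sample left out. For elongating spermatid markers the numbers were 11, then 5 without a filter, 3 with quantile normalisation, 4 with the length trend removed and 7 to 11 with a sample left out. Spermatocyte markers numbered 3, then 1 without a filter, with quantile normalisation (Piwil1, not one of the 3 that rose), the length trend removed or no mean-variance trend, and 0 to 2 with a sample left out. Sertoli cell markers numbered 1, then 0 without a filter, with the length trend removed or with the replicate block, and 0 to 1 with a sample left out. The cause of these differences was not tested.

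Replicate numbers are shared by the groups, but only 2 of the 4 same-numbered pairs had deviations from the group means that correlated above 0.1 across genes (-0.0167, -0.0401, 0.104 and 0.111), and only control replicate 4 matched its own number best, so the numbers were not taken to pair the samples. With the block Tnp1 had a limma adjusted p of 0.0533. Depth is unknown in absolute terms, which limits genes such as Tssk5 and the scarce Fam107a and Antxr1 most.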
